A study of Homo sapiens with 8 samples.

Results

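The comparison set PATU-8902 cells carrying hairpins to YAP1 and WWTR1 (shYAP_TAZ, 3 libraries) against the same cells with the control hairpin (shNTC, 2 libraries), over all genes with enough counts to be tested. These are 5 of the 8 RNA sequencing libraries of the series, and the groups were taken from the library titles. PATU-8902 is a human pancreatic adenocarcinoma cell line, grown as a monolayer in RPMI medium with tetracycline-free serum per the labels' protocols. Both lines are labelled as sensitive to GNE-7883, an inhibitor of the TEAD transcription factors. The other 3 libraries come from a resistant line grown out of a shYAP/WWTR1 tumour in a nude mouse, and here they entered the estimate of the spread and 1 set of chromosome 8 values. The sources used here do not give whether the shNTC and shYAP_TAZ cells had doxycycline, nor whether either line is 1 clone. The sample descriptions speak of xenografts, whereas the RNA protocol describes cell lines lysed on the plate. Each group is a single line, so an effect of the hairpins cannot be told apart from any other difference between the lines. Nothing in the labels says that the libraries within a group are separate cultures, so p-values here reflect the spread between these libraries alone, which may be technical.

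YAP (gene YAP1) and TAZ (gene WWTR1) are coactivators that sit at the end of the Hippo kinase pathway. When the pathway is off they enter the nucleus, bind TEAD factors and switch on genes of growth, survival, adhesion and the cytoskeleton. In pancreatic cancer they are known for sustaining tumour growth.

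The hairpin targets were lower in the shYAP_TAZ line, and neither was absent. YAP1 (ENSG00000137693, chr11:102110461-102233423 in GRCh38 by GENCODE 29) was at 389 and 376 CPM in shNTC and 156, 155 and 157 CPM in shYAP_TAZ, giving a log2 change of -1.29 with SE 0.06 (edgeR adjusted p = 6.2e-14). CPM are counts scaled to a common library total, with TMM factors, which adjust for differences in library composition. WWTR1 (ENSG00000018408, chr3:149517235-149736714) was at 125 and 126 CPM in shNTC and 49.7, 51.2 and 49.6 CPM in shYAP_TAZ, giving a log2 change of -1.33 with SE 0.07 (edgeR adjusted p = 4.5e-13). For both genes every shYAP_TAZ library lay below both shNTC libraries.

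Total counts ran from 17841525 to 22629727 over the 5 libraries. All 10 markers of pancreatic ductal epithelium were detected, and their summed level was 4956 to 5304 CPM in shNTC and 6221 to 6495 CPM in shYAP_TAZ. The 10 acinar markers summed to at most 0.877 CPM and the 8 endocrine markers to at most 0.292 CPM in any library. The 10 fibroblast markers summed to 17.5 to 18.5 CPM in shNTC and 11.7 to 12.9 CPM in shYAP_TAZ, with PDGFRA and POSTN at 0. The difference in this sum was that of ACTA2 (15.4 to 5.73 CPM), and without ACTA2 the other 9 summed to 2.09 to 3.07 CPM in shNTC and 6.13 to 7.22 CPM in shYAP_TAZ. The 9 endothelial markers summed to 7.80 to 8.20 CPM in shNTC and 25.9 to 28.2 CPM in shYAP_TAZ, with KDR and EMCN at 0 and ESAM and VWF higher, and PECAM1 lower (0.599 to 0.240 CPM). The 10 leukocyte markers summed to 10.2 to 11.3 CPM in shNTC and 8.42 to 9.01 CPM in shYAP_TAZ, with MS4A1, CD68 and TYROBP among those at 0. Without LYZ, which fell, the other 9 summed to 1.95 to 2.33 CPM in shNTC and 2.68 to 3.55 CPM in shYAP_TAZ.

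A gene is said to have risen or fallen where edgeR's quasi-likelihood test gave a Benjamini-Hochberg adjusted p under 0.05 over the 16256 genes tested, of 58302 in the count table. By that rule 9870 genes changed (60.7%), of which 4929 rose (30.3%) and 4941 fell (30.4%). At least 2-fold changes were made by 1337 genes upwards (8.22%) and 1321 downwards (8.13%), and the median log2 fold change over all tested genes was 0.00. These shares are the background for counts over all genes, since a majority of genes passed the test. For the lists and symbol families below, which hold protein-coding genes only, the background is 33.7% that rose and 33.9% that fell. All 3 shYAP_TAZ libraries lay above both shNTC libraries in 5813 genes (35.8%) and below both in 5832 genes (35.9%). The 2522 genes with a mean over 100 CPM changed at least 2-fold in 9.08% of cases, and the 2525 genes under 1 CPM in 29.5%. Protein-coding genes were balanced, with 4207 that rose and 4231 that fell out of 12492. Of 581 long intergenic non-coding RNAs, 175 rose (30.1%, near the share of all tested genes) and only 109 fell (18.8%). Their median log2 fold change was 0.17. Processed pseudogenes passed the test less often in both directions, with 199 that rose (12.7%) and 253 that fell (16.1%) out of 1570. Their median log2 fold change was -0.01.

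Measured by the amount of RNA, the largest rise was that of EMP1, a membrane protein of epithelial cells. EMP1 was at 1539.8 and 1529 CPM in shNTC and 4556, 4396 and 4583 CPM in shYAP_TAZ, giving a log2 change of 1.56 with SE 0.06 (edgeR adjusted p = 8.8e-15). Its libraries did not overlap between the groups. For the other genes, values in brackets run from the mean of the shNTC libraries to the mean of the shYAP_TAZ libraries, followed by the log2 fold change. The other 14 genes with the largest rises in CPM included genes of the cytoskeleton and nuclear envelope: ACTB (1603 to 2890.1 CPM, log2 0.85), which encodes beta-actin, FLNA (559 to 1343 CPM, log2 1.27), which encodes the actin crosslinker filamin A, and LMNA (852 to 1802 CPM, log2 1.08), which encodes lamins A and C. They also included genes of the cell surface: DDR1 (657 to 1285 CPM, log2 0.97), a collagen receptor, CD59 (482 to 1083 CPM, log2 1.17), an inhibitor of complement, CD9 (707 to 1341 CPM, log2 0.92), a tetraspanin, and APLP2 (798 to 1609 CPM, log2 1.01), an amyloid precursor-like protein. TGM2 (4305 to 5744 CPM, log2 0.42), which encodes the crosslinking enzyme transglutaminase 2, was the most abundant of them. Others of the 15 were S100A4 (657 to 1532 CPM, log2 1.22), MYOF (1107 to 1771 CPM, log2 0.68), GNAS (1363 to 2003 CPM, log2 0.56), IFI27 (177 to 733 CPM, log2 2.05) and DUSP4 (428 to 984 CPM, log2 1.20), the last a phosphatase that acts on MAP kinases. Together the 15 genes went from 15598 to 29686 CPM.

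The largest fall by amount of RNA was that of TMBIM6, an ER membrane protein that restrains cell death. TMBIM6 was at 2925 and 3094 CPM in shNTC and 895, 914 and 948 CPM in shYAP_TAZ, giving a log2 change of -1.71 with SE 0.06 (edgeR adjusted p = 1.6e-15). The 15 largest falls held 2 other genes of membranes, CAV1 (3169 to 1468 CPM, log2 -1.11), the main protein of caveolae, and ANXA1 (1963 to 736 CPM, log2 -1.42), a phospholipid-binding annexin. Among them were 3 HSP90 genes: HSP90AA1 (1239 to 507 CPM, log2 -1.29) and HSP90AB1 (2922 to 2216 CPM, log2 -0.40) encode the cytosolic chaperone, and HSP90B1 (2489 to 1554 CPM, log2 -0.68) encodes its ER counterpart. The ribosomal protein genes RPS6 (3716 to 2273 CPM, log2 -0.71), RPL8 (3453 to 2509 CPM, log2 -0.46) and RPL30 (1016 to 200.4 CPM, log2 -2.34) were there as well. So were ASPH (1522 to 641 CPM, log2 -1.25), a hydroxylase of the ER, LY6E (2214 to 1478 CPM, log2 -0.58), a lipid-anchored surface protein, C3 (1747 to 937 CPM, log2 -0.90), the central complement protein, and ENO1 (2585 to 1878 CPM, log2 -0.46), the glycolytic enolase. SLC7A5 (1347 to 255 CPM, log2 -2.40), a transporter of large neutral amino acids, and FOXM1 (1211 to 141 CPM, log2 -3.11), a transcription factor of dividing cells, completed the 15. Together these genes went from 33602 to 17713 CPM. Of the 15, 4 are on chromosome 8, which is described at the end. FOXM1 overlaps another counted gene, so its value may hold reads of that neighbour.

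**Figure D1:**
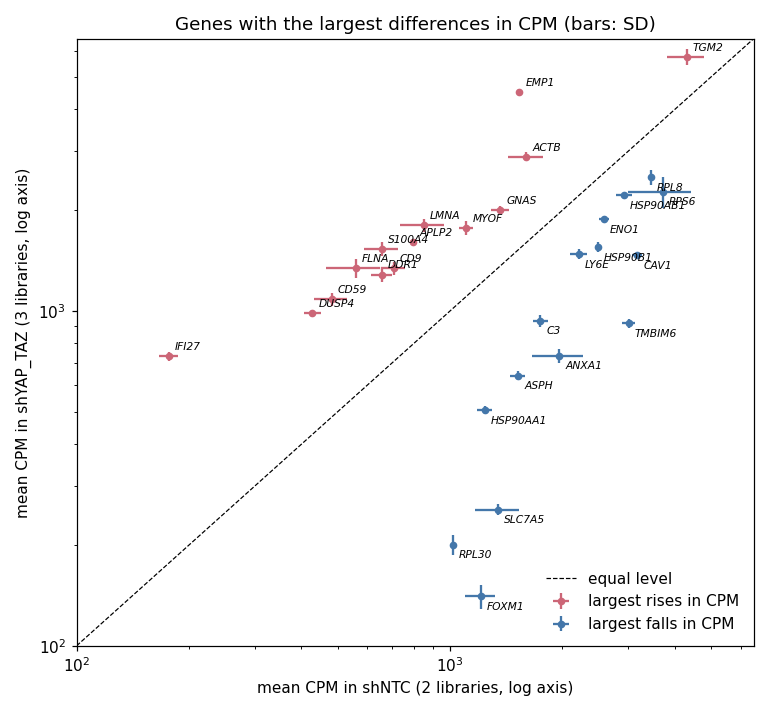
Mean CPM in shNTC (2 libraries, horizontal log axis) against mean CPM in shYAP_TAZ (3 libraries, vertical log axis) for 14 of the 15 genes with the largest rise and the 15 with the largest fall in CPM; bars are SD and the dashed line is equal level. EMP1 stands farthest above the line by amount of RNA, and FOXM1, SLC7A5 and RPL30 stand farthest below it by fold.

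By fold, and among genes that reach 10 CPM in the higher group, the rises were led by genes nearly absent from the control line. MLPH, which links melanosomes and other vesicles to myosin, was at 0 in both shNTC libraries and at 14.4, 15.7 and 13.3 CPM in shYAP_TAZ. Others were membrane and secreted proteins: ITGB2 (0.403 to 24.3 CPM, log2 5.87), an integrin chain of leukocytes, PLA2G5 (0.374 to 18.2 CPM, log2 5.55), a secreted phospholipase, NOV (1.23 to 27.7 CPM, log2 4.46), a matricellular protein also called CCN3, SORL1 (3.80 to 51.5 CPM, log2 3.77), a sorting receptor, AQP3 (1.62 to 19.1 CPM, log2 3.58), a water and glycerol channel of epithelia, and VNN1 (1.26 to 11.6 CPM, log2 3.18), a pantetheinase. Of the leukocyte markers, LAPTM5 (1.72 to 2.74 CPM, log2 0.67) also rose and LYZ (8.61 to 5.56 CPM, log2 -0.64) fell, and LAPTM5 did not pass the test without shNTC replicate 2 (edgeR adjusted p = 0.0835). IGSF3 (1.28 to 12.6 CPM, log2 3.30), IL4I1 (1.91 to 18.1 CPM, log2 3.23), a secreted amino acid oxidase, and AHNAK2 (11.6 to 98.1 CPM, log2 3.08) also belonged to the 15 largest log2 rises. VNN1 and IL4I1 each overlap another counted gene, so their values may hold reads of that neighbour.

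The 15 largest log2 falls mixed enzymes, cell cycle genes and cytoskeletal adaptors. METTL7A (21.9 to 0.393 CPM, log2 -5.81), a membrane-bound methyltransferase, and CA9 (36.5 to 1.45 CPM, log2 -4.64), a carbonic anhydrase known as a hypoxia marker, led them. CCND2 (32.6 to 2.70 CPM, log2 -3.60), which encodes cyclin D2, was at 30.3 and 34.8 CPM in shNTC and 3.09, 2.63 and 2.39 CPM in shYAP_TAZ. PIF1 (11.8 to 0.724 CPM, log2 -4.01), a DNA helicase, NEDD9 (log2 -3.22), a scaffold of focal adhesions, and LZTS1 (14.0 to 1.15 CPM, log2 -3.59), a leucine zipper protein, fell as well. A retinoid-related pair was among them: CYP26A1 (12.1 to 1.38 CPM, log2 -3.13), which degrades retinoic acid, and RARRES1 (43.0 to 4.37 CPM, log2 -3.30), named for its induction by retinoids. The others were FOXM1, given above, TMEM94 (78.7 to 7.42 CPM, log2 -3.40), CP (17.5 to 1.74 CPM, log2 -3.34), the copper carrier ceruloplasmin, SGCB (13.7 to 1.36 CPM, log2 -3.32), CC2D2A (12.2 to 1.27 CPM, log2 -3.26), a protein of the ciliary base, NLRP2 (35.6 to 4.43 CPM, log2 -3.01) and NAALADL2 (12.4 to 1.60 CPM, log2 -2.95). CA9, RARRES1, CP and NAALADL2 each overlap another counted gene, so their values may hold reads of that neighbour.

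Genes of chromosome segregation formed the group with the lowest values, and some of their promoters carry a recognisable layout. Many genes that peak in mitosis hold a cell cycle homology region (CHR, letters TTTGAA) and CCAAT boxes close to the start of transcription, the elements through which the DREAM complex, MYB and FOXM1, and NF-Y are known to act. Only kinetochore and spindle genes that hold both elements in the 250 bases before the RefSeq start were considered for display. The layout of those shown was thus fixed by the choice. The bases of the 4 with the largest falls are given here. They were read from RefSeq on GRCh38.p14 on the gene's own strand: DLGAP5 from chr14:55191586-55191835 (- strand), ESPL1 from chr12:53268049-53268298 (+ strand), CENPA from chr2:26785806-26786055 (+ strand) and ASPM from chr1:197146670-197146919 (- strand). Each runs 5′ to 3′, and capitals mark the CHR letters and CCAAT, on either strand (TTCAAA and ATTGG are the reverse complements).
DLGAP5: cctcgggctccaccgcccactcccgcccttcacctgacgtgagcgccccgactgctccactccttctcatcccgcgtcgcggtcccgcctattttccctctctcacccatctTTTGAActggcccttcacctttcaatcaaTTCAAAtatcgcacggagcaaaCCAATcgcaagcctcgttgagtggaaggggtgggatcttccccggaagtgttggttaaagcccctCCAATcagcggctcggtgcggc
ESPL1: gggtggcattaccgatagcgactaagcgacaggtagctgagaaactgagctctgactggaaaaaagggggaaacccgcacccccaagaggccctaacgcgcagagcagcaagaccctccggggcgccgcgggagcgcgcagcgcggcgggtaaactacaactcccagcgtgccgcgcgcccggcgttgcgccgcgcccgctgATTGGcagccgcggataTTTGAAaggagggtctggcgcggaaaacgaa
CENPA: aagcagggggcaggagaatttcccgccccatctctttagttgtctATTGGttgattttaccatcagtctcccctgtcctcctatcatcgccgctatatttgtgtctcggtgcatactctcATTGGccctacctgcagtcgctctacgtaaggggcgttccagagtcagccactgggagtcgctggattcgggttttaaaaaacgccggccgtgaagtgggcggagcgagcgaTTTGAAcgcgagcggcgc
ASPM: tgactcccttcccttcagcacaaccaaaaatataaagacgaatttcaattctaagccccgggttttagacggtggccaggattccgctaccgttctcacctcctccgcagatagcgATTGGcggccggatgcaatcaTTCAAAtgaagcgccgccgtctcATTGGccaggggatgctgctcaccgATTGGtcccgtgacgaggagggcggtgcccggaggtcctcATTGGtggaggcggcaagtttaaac

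Promoters of 300 bases, from 250 before to 50 after the start, were found for 9903 of 12490 tested protein-coding gene symbols. The letters TTTGAA occur on either strand in 9.47% of them, and CCAAT in 36.4%. Of the 63 kinetochore and spindle genes below with a promoter sequence, 38 hold TTTGAA (60.3%) and 45 hold CCAAT (71.4%). Both are present in 29 of these 63 (46.0%), against 3.97% of all promoters. Among 35 DNA replication genes, whose promoters are better known for E2F sites, 1 holds TTTGAA (2.86%) and 20 hold CCAAT (57.1%). Over all genes, TTTGAA is present in 18.1% of the promoters of genes that fell at least 2-fold and in 8.89% of those that rose at least 2-fold. The set that fell includes many of the kinetochore and spindle genes, so the 2 results are not separate. Among 21 collagen and laminin genes, which leaned higher, 5 hold TTTGAA (23.8%). Among 30 genes of the amino acid lists 4 hold it (13.3%). The TEAD letters GGAATG are present in 10.9% of all promoters, in 11.6% of those of genes that fell at least 2-fold and in 14.1% of those that rose at least 2-fold. The AP-1 letters TGANTCA are present in 4.60%, 5.06% and 7.62% of the same 3 sets. A match describes the letters in this window only, and TEAD and AP-1 are known to bind mostly at distal enhancers, which these windows do not cover.

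All 38 tested genes of the spindle and cytokinesis list fell, 35 of them at least 2-fold (median log2 fold change -1.60), where 33.9% of tested protein-coding genes fell. The list holds kinesins, microtubule regulators and cytokinesis factors. KIF20A (ENSG00000112984, chr5:138178719-138187715), a kinesin of the cleavage furrow, was at 258 and 250.3 CPM in shNTC and 37.4, 37.9 and 38.2 CPM in shYAP_TAZ, giving a log2 change of -2.75 with SE 0.06 (edgeR adjusted p = 1.2e-17). DLGAP5 (ENSG00000126787, chr14:55148112-55191678), which stabilises spindle microtubules, was at 119 and 135 CPM in shNTC and 20.1, 19.2 and 18.0 CPM in shYAP_TAZ, or -2.74 on the log2 scale with SE 0.08 (edgeR adjusted p = 9.9e-17). ESPL1 (ENSG00000135476, chr12:53268299-53293643), the separase that cuts cohesin at anaphase, was at 127 and 116 CPM in shNTC and 18.1, 18.9 and 17.7 CPM in shYAP_TAZ, or -2.73 on the log2 scale with SE 0.07 (edgeR adjusted p = 8.4e-17). In these 3 genes no library of one group reached the other group. FAM83D (169 to 25.0 CPM, log2 -2.76) and ASPM (137 to 21.9 CPM, log2 -2.65), a spindle pole protein, completed the 5 largest falls of the list. In bulk RNA, fewer dividing cells and less of these RNAs per cell cannot be told apart. KIF20A overlaps another counted gene, so its value may hold reads of that neighbour.

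Of 37 tested kinetochore and checkpoint genes 33 fell, 23 of them at least 2-fold, and 1 rose (median log2 fold change -1.25). CENPA (ENSG00000115163, chr2:26764289-26801067), the histone H3 variant that marks centromeres, was at 44.3 and 43.8 CPM in shNTC and 6.19, 6.69 and 7.27 CPM in shYAP_TAZ, giving a log2 change of -2.71 with SE 0.09 (edgeR adjusted p = 7.0e-16). Its loading chaperone fell with it, HJURP (124 to 29.1 CPM, log2 -2.10). CENPE (48.9 to 7.51 CPM, log2 -2.70), a kinetochore kinesin, CENPF (187 to 37.0 CPM, log2 -2.34) and SPC24 (63.1 to 17.7 CPM, log2 -1.83), a subunit of the NDC80 complex, were the other 3 of the 5 largest falls. The 1 member that rose was CENPH (11.5 to 19.4 CPM, log2 0.76), of the inner kinetochore. CENPA and SPC24 each overlap another counted gene, so their values may hold reads of that neighbour.

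Of 19 tested genes of the condensin and cohesin list, 4 rose and 13 (8 of them at least 2-fold) fell, with a median log2 fold change of -0.57. The condensins compact chromosomes for mitosis, and NCAPD2 (881 to 329 CPM, log2 -1.42), NCAPD3 (295 to 101 CPM, log2 -1.54), NCAPH (115 to 41.7 CPM, log2 -1.46) and NCAPG (137 to 62.3 CPM, log2 -1.13) all fell. TOP2A, the topoisomerase that untangles sister chromatids, was at 659.6 and 698 CPM in shNTC and 155, 148 and 162 CPM in shYAP_TAZ, giving a log2 change of -2.13 with SE 0.06 (edgeR adjusted p = 1.2e-16). Against the majority, STAG2 (135 to 269 CPM, log2 0.99), a cohesin subunit, and NIPBL (81.1 to 102 CPM, log2 0.33), the cohesin loader, rose. Centrosome genes were less uniform. Among the 19 tested centrosome genes, 10 (5 of them at least 2-fold) fell and 4 rose (median log2 fold change -0.30). PLK4 (47.8 to 17.6 CPM, log2 -1.44), the kinase that starts centriole duplication, and its partners STIL (72.6 to 27.5 CPM, log2 -1.40) and SASS6 (27.9 to 12.1 CPM, log2 -1.21) fell, whereas PCNT (33.6 to 44.1 CPM, log2 0.39), a scaffold of the pericentriolar material, and TUBGCP2 (146 to 221 CPM, log2 0.60), of the gamma-tubulin complex, rose. NCAPD2, NCAPD3, NCAPG and TUBGCP2 each overlap another counted gene, so their values may hold reads of that neighbour.

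DNA replication genes were lower with smaller folds. Among the 41 tested replication genes, 30 (6 of them at least 2-fold) fell and 6 rose (median log2 fold change -0.55). POLE2 (18.2 to 7.23 CPM, log2 -1.34), a subunit of polymerase epsilon, RPA2 (81.3 to 34.0 CPM, log2 -1.26), which coats single-stranded DNA, ORC6 (41.2 to 19.0 CPM, log2 -1.12), of the origin recognition complex, TIMELESS (83.3 to 39.0 CPM), of the fork protection complex, and PRIM1 (48.4 to 22.9 CPM, log2 -1.08), the primase, were the 5 largest falls. MCM6 (112 to 173 CPM, log2 0.63), a subunit of the replicative helicase, and CHAF1B (19.2 to 27.6 CPM, log2 0.53), a histone chaperone, rose. Without the 2 members on chromosome 8 the median of the list was -0.46. Among the 23 tested genes of nucleotide synthesis, 13 (5 of them at least 2-fold) fell and 6 rose (median log2 fold change -0.20). The falls were led by enzymes of the deoxynucleotide pool: DCTPP1 (78.0 to 14.0 CPM, log2 -2.48), which hydrolyses dCTP, RRM2 (189 to 66.9 CPM, log2 -1.50), of ribonucleotide reductase, TK1 (324 to 137 CPM, log2 -1.24), thymidine kinase, and TYMS (151 to 71.8 CPM, log2 -1.08), thymidylate synthase. In contrast CTPS1 (53.2 to 85.6 CPM, log2 0.69), which makes CTP, and ATIC (184 to 249 CPM, log2 0.43), of purine synthesis, rose. Among the 31 tested genes of recombination and Fanconi repair, 25 (8 of them at least 2-fold) fell and 1 rose (median log2 fold change -0.71). FANCD2 (59.8 to 13.1 CPM, log2 -2.19), the monoubiquitinated switch of the Fanconi pathway, and FANCA (63.6 to 27.5 CPM, log2 -1.21), of its core complex, were among the 5 largest falls. The 1 that rose was FANCE (10.7 to 13.3 CPM, log2 0.31), and it did not pass the test without shNTC replicate 2 (edgeR adjusted p = 0.108). PRIM1, CHAF1B, TYMS and FANCA each overlap another counted gene, so their values may hold reads of that neighbour.

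Genes that p53 or cell cycle exit are known to raise leaned lower, with large changes in both directions. Among the 28 tested genes of that list, 18 (64.3%, 5 of them at least 2-fold) fell, where 33.9% of tested protein-coding genes fell. A further 9 (32.1%, 5 of them at least 2-fold) rose, near the 33.7% of tested protein-coding genes. The median log2 fold change of the list was -0.51. CDKN1C, the CDK inhibitor p57, was at 1.08 and 0.882 CPM in shNTC and 11.7, 12.1 and 9.56 CPM in shYAP_TAZ, giving a log2 change of 3.51 with SE 0.24 (edgeR adjusted p = 8.9e-11), with no overlap between the groups. ZMAT3 (7.24 to 17.4 CPM, log2 1.27), a p53 target that binds RNA, rose as well. TXNIP (364 to 76.9 CPM, log2 -2.24), which binds thioredoxin and limits glucose uptake, SESN3 (3.32 to 0.705 CPM, log2 -2.22), a sestrin, and TP53INP1 (7.52 to 2.63 CPM, log2 -1.50) fell, the last on chromosome 8. TP53INP1 overlaps another counted gene, so its value may hold reads of that neighbour.

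**Figure D2:**
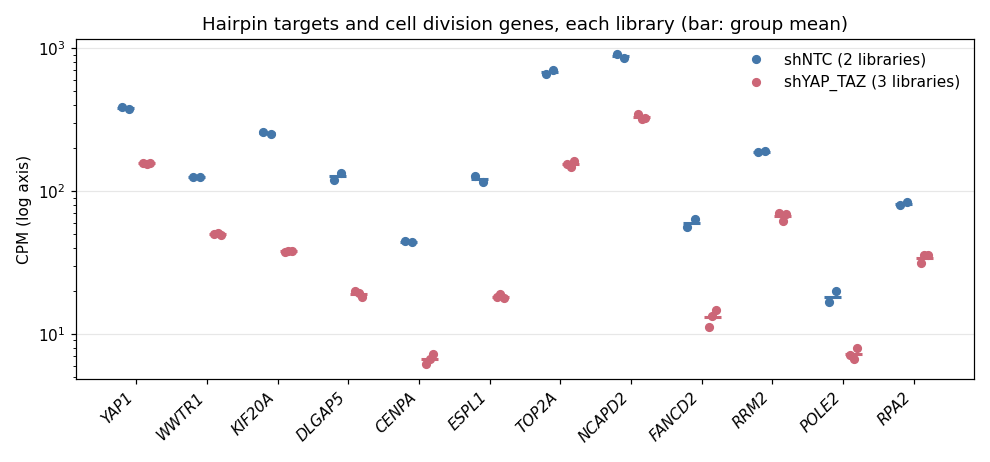
CPM in each of the 2 shNTC and 3 shYAP_TAZ libraries (vertical log axis) for the 2 hairpin targets and 10 genes of cell division, DNA repair and replication; short bars are group means. The groups do not overlap for any of the 12 genes, and the gap is wider for CENPA or ESPL1 than for YAP1 and WWTR1.

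Genes of amino acid supply were lower in part. SLC7A5 (ENSG00000103257, chr16:87830023-87869488) was at 1474 and 1219.9 CPM in shNTC and 265, 254 and 246 CPM in shYAP_TAZ, giving a log2 change of -2.40 with SE 0.07 (edgeR adjusted p = 2.0e-16). Its heavy chain partner SLC3A2 was at 582 and 524 CPM in shNTC and 161, 166 and 162 CPM in shYAP_TAZ, or -1.76 on the log2 scale with SE 0.06 (edgeR adjusted p = 1.6e-15). The 2 subunits of this exchanger of large neutral amino acids thus fell together. Among the 22 tested amino acid transporters, 11 (8 of them at least 2-fold) fell and 7 (3 of them at least 2-fold) rose (median log2 fold change -0.18). With at least 1 CPM in 2 libraries as the filter the median of the transporters was -0.44. SLC6A9 (8.53 to 3.02 CPM, log2 -1.50), a glycine carrier, and SLC43A1 (2.78 to 1.01 CPM, log2 -1.47) were also lower, whereas SLC1A1 (13.5 to 45.2 CPM, log2 1.75), a glutamate carrier, and SLC38A9 (15.2 to 33.9 CPM, log2 1.15), the arginine sensor of lysosomes, rose. Among the 12 tested genes of serine, glycine and one-carbon metabolism, 7 fell and 2 rose (median log2 fold change -0.16). MTHFD2 (270.0 to 150.4 CPM, log2 -0.85) and SHMT2 (153 to 86.1 CPM, log2 -0.83), both enzymes of the mitochondrial folate pathway, PSPH (55.3 to 35.2 CPM, log2 -0.65), the last step of serine synthesis, and SHMT1 (119 to 81.7 CPM, log2 -0.54) fell. Among the 20 tested cytosolic aminoacyl-tRNA synthetases, 12 fell and 5 rose (median log2 fold change -0.22). The named falls were those for alanine, AARS (355 to 207 CPM, log2 -0.78), tryptophan, WARS (231 to 145 CPM, log2 -0.67), glycine, GARS (391 to 245 CPM, log2 -0.67), and glutamate and proline, EPRS (374 to 259.7 CPM, log2 -0.53), and HARS (95.5 to 126 CPM, log2 0.40), for histidine, rose. SLC6A9, SHMT1 and HARS each overlap another counted gene, so their values may hold reads of that neighbour.

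Lists of the translation machinery and the proteasome had medians near 0, with members that went both ways. Of 80 tested genes of cytosolic ribosomal proteins, 24 rose and 16 (1 of them at least 2-fold) fell, with a median log2 fold change of -0.03. The median depended on single libraries, from -0.09 without shNTC replicate 1 to 0.04 without shNTC replicate 2, and was 0.03 without shYAP_TAZ replicate 1. The largest change was that of RPL30 (ENSG00000156482, chr8:98024851-98046469), at 1017 and 1016 CPM in shNTC and 204, 212 and 186 CPM in shYAP_TAZ, giving a log2 change of -2.34 with SE 0.06 (edgeR adjusted p = 8.4e-17). It was the only ribosomal protein gene of the 80 that fell at least 2-fold, and RPLP1 (540.2 to 292 CPM, log2 -0.89), RPS6 (3716 to 2273 CPM, log2 -0.71) and RPL19 (565 to 379.7 CPM, log2 -0.57) followed. Ribosomal protein genes have many processed pseudogenes, so short reads can be shared between copies. Of 35 tested genes of ribosome biogenesis, 16 rose and 8 fell, with a median log2 fold change of 0.14. DDX21 (343 to 621 CPM, log2 0.86), a nucleolar helicase, and PES1 (103 to 162 CPM, log2 0.66) rose, and TCOF1 (132 to 67.9 CPM, log2 -0.96), which supports ribosomal DNA transcription, and GNL3 (94.6 to 58.6 CPM, log2 -0.69) fell. That median was 0.03 without shNTC replicate 2 and 0.22 without shNTC replicate 1. Of 50 tested genes of translation initiation, 17 (2 of them at least 2-fold) rose and 12 fell, with a median log2 fold change of 0.07. EIF2B2 (27.3 to 58.5 CPM), a subunit of the exchange factor of eIF2, and EIF4EBP2 (191 to 367 CPM, log2 0.94), a repressor of cap binding, rose, and EIF2D (104 to 57.4 CPM, log2 -0.85) and EIF3E (534 to 359 CPM, log2 -0.57) fell. Leaving out shNTC replicate 2 brought the median of the initiation genes to 0.00, and leaving out shYAP_TAZ replicate 2 to 0.03. Of 36 tested proteasome genes, 11 rose and 8 fell, with a median log2 fold change of 0.05. PSMD9 (27.5 to 48.3 CPM, log2 0.81) and PSMA7 (305 to 467 CPM, log2 0.61) rose and PSMA3 (149 to 88.4 CPM, log2 -0.76) and PSMD14 (170.4 to 112 CPM, log2 -0.61) fell. The proteasome median was 0.00 without shNTC replicate 1, 0.08 without shYAP_TAZ replicate 1 and 0.03 without shYAP_TAZ replicate 3. GNL3 and EIF2D each overlap another counted gene, so their values may hold reads of that neighbour.

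Protein folding genes leaned lower both in the cytosol and in the ER. Among the 26 tested cytosolic chaperones and co-chaperones, 16 (3 of them at least 2-fold) fell and 4 rose (median log2 fold change -0.25). HSP90AA1, the inducible HSP90, was at 1282 and 1196 CPM in shNTC and 519, 491 and 510.3 CPM in shYAP_TAZ, giving a log2 change of -1.29 with SE 0.06 (edgeR adjusted p = 9.4e-14). Its co-chaperones STIP1 (528 to 304 CPM, log2 -0.80) and CHORDC1 (50.5 to 22.6 CPM, log2 -1.16) and the HSP110 gene HSPA4L (58.1 to 19.6 CPM, log2 -1.57) fell, whereas BAG3 (77.1 to 145 CPM, log2 0.92), which couples HSP70 to selective autophagy, rose. Among the 23 tested genes of ER folding and the unfolded protein response, 15 (1 of them at least 2-fold) fell and 4 rose (median log2 fold change -0.30). XBP1 (180.1 to 98.4 CPM, log2 -0.87), the transcription factor of that response, and HERPUD1 (104 to 53.2 CPM, log2 -0.97), SYVN1 (97.9 to 40.1 CPM, log2 -1.29) and EDEM1 (111 to 62.9 CPM, log2 -0.82), of ER-associated degradation, fell with HSP90B1. SYVN1 overlaps another counted gene, so its value may hold reads of that neighbour.

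Of 24 tested genes of fatty acid and glycerolipid synthesis, 14 (5 of them at least 2-fold) rose and 4 (1 of them at least 2-fold) fell, with a median log2 fold change of 0.30. DGAT2 (7.98 to 20.9 CPM, log2 1.39) and AGPAT2 (110.4 to 273 CPM, log2 1.31), of triglyceride synthesis, ACSL4 (28.5 to 63.8 CPM, log2 1.16), which activates polyunsaturated fatty acids, and INSIG1 (93.4 to 202 CPM, log2 1.12), the sterol-regulated retention protein, rose, and FADS2 (9.68 to 1.87 CPM, log2 -2.39), a desaturase, and ME1 (62.8 to 42.2 CPM, log2 -0.57) fell. Of 33 tested genes of fatty acid oxidation and peroxisomes, 11 (33.3%, 3 of them at least 2-fold) rose and 13 (39.4%, 5 of them at least 2-fold) fell. Both shares were near those of tested protein-coding genes (33.7% and 33.9%). The median log2 fold change of this list was 0.05. Within it PPARA (5.72 to 23.1 CPM, log2 2.01), the nuclear receptor of fatty acid oxidation, ACADM (25.8 to 78.7 CPM, log2 1.61) and SLC25A20 (4.68 to 10.9 CPM, log2 1.23), of the mitochondrial pathway, rose, and the peroxisomal gene EHHADH (18.2 to 6.26 CPM, log2 -1.54) fell. The median of the oxidation list was 0.02 without shNTC replicate 1, 0.09 without shYAP_TAZ replicate 1 and 0.01 without shYAP_TAZ replicate 2. FADS2 and ACADM each overlap another counted gene, so their values may hold reads of that neighbour.

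Mitochondrial genes were near balance as lists and held a few large changes. Of 79 tested nuclear genes of the respiratory chain, 15 (1 of them at least 2-fold) rose and 21 (2 of them at least 2-fold) fell, with a median log2 fold change of -0.05. COX6A1, a cytochrome c oxidase subunit, was at 19.1 and 22.6 CPM in shNTC and 101, 107 and 108 CPM in shYAP_TAZ, giving a log2 change of 2.33 with SE 0.09 (edgeR adjusted p = 1.0e-14). SDHD, of succinate dehydrogenase, was at 35.7 and 38.7 CPM in shNTC and 7.63, 7.85 and 9.36 CPM in shYAP_TAZ, or -2.17 on the log2 scale with SE 0.10 (edgeR adjusted p = 2.1e-13). Neither gene's libraries overlapped between the groups, while 43 of the 79 list members did not pass the test. SDHC (6.00 to 1.54 CPM, log2 -1.95), another subunit of the same dehydrogenase, fell. The respiratory chain median was -0.09 without shNTC replicate 1, and -0.01 without shNTC replicate 2 or without shYAP_TAZ replicate 1. Of 78 tested genes of the mitochondrial ribosome, 20 rose and 26 (3 of them at least 2-fold) fell, with a median log2 fold change of -0.04. MRPS21 (4.86 to 1.21 CPM, log2 -2.01), MRPS27 (163 to 51.6 CPM, log2 -1.66) and MRPL35 (27.6 to 11.9 CPM, log2 -1.22) were the 3 that fell at least 2-fold. The median of the mitochondrial ribosome turned positive, at 0.01, without shNTC replicate 2 or without shYAP_TAZ replicate 1, and was -0.07 without shNTC replicate 1 and -0.09 without shYAP_TAZ replicate 3. Genes of the outer membrane translocase, which imports proteins into mitochondria, were the family of shared symbol letters with the lowest median of 227 such families (-0.78). Of 9 TOMM genes 5 fell, TOMM6 (138 to 40.9 CPM, log2 -1.75), TOMM5 (14.3 to 4.89 CPM, log2 -1.55), TOMM20 (353 to 152 CPM, log2 -1.22), TOMM70 (244 to 142 CPM, log2 -0.78) and TOMM40L (8.92 to 4.58 CPM, log2 -0.95), and 2 rose, TOMM40 (51.8 to 77.8 CPM, log2 0.59), the channel itself, and TOMM7 (86.6 to 114 CPM, log2 0.39). SDHD and MRPS27 each overlap another counted gene, so their values may hold reads of that neighbour.

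Some medians below are given also on log2(RPKM + 1), which holds down low genes, where that scale moved them by over 1.5 times. Of 27 tested genes of NRF2 targets and glutathione metabolism, 7 (2 of them at least 2-fold) rose and 14 (4 of them at least 2-fold) fell, with a median log2 fold change of -0.18 (-0.11 on log2(RPKM + 1)). SLC7A11 (65.9 to 24.9 CPM, log2 -1.40), the cystine importer, MGST1 (405 to 150.1 CPM, log2 -1.43), a membrane glutathione transferase, and HMOX1 (9.36 to 2.93 CPM, log2 -1.67), heme oxygenase, fell, and the export pump ABCC3 (54.3 to 116 CPM) rose. Of 37 tested lysosomal genes, 18 (4 of them at least 2-fold) rose and 10 (2 of them at least 2-fold) fell, with a median log2 fold change of 0.11. NPC1 (49.5 to 119.6 CPM, log2 1.28), which exports cholesterol from lysosomes, CTSL (32.2 to 72.2 CPM, log2 1.16), a protease, SGSH (5.68 to 16.9 CPM, log2 1.57), a sulfatase, and SQSTM1 (239 to 538 CPM, log2 1.17), the autophagy receptor p62, rose, and LAMP1 (405 to 199 CPM, log2 -1.03), a main protein of the lysosomal membrane, and ASAH1 (138 to 62.5 CPM, log2 -1.14), acid ceramidase, fell. Of 25 tested genes of mucins and their glycosylation, 6 (3 of them at least 2-fold) rose and 10 (1 of them at least 2-fold) fell, with a median log2 fold change of -0.12. MUC16, a membrane mucin, rose, at 19.0 and 22.6 CPM in shNTC and 76.0, 39.2 and 35.7 CPM in shYAP_TAZ, giving a log2 change of 1.26 with SE 0.25 (edgeR adjusted p = 0.00016), and the first shYAP_TAZ library stood well above the other 2. MUC4 (0.439 to 1.94 CPM, log2 2.04) and TFF2 (0.201 to 2.21 CPM, log2 3.40), a trefoil peptide secreted with mucus, rose, and the glycosyltransferases GCNT1 (5.19 to 0.711 CPM, log2 -2.84) and GALNT3 (134 to 69.2 CPM, log2 -0.95) fell. The log2 fold change of MUC4 was 3.03 without shNTC replicate 2. NPC1, SGSH and SQSTM1 each overlap another counted gene, so their values may hold reads of that neighbour.

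Collagen and laminin genes had the highest median of the 44 lists in counts, though not on log2(RPKM + 1). Of 26 tested collagen and laminin genes, 15 (11 of them at least 2-fold) rose and 5 (2 of them at least 2-fold) fell, with a median log2 fold change of 0.90 (0.19 on log2(RPKM + 1)). COL17A1 (ENSG00000065618, chr10:104031286-104085957), the transmembrane collagen of hemidesmosomes, was at 70.3 and 70.6 CPM in shNTC and 359.8, 352 and 319 CPM in shYAP_TAZ, giving a log2 change of 2.29 with SE 0.09 (edgeR adjusted p = 1.6e-14). COL6A1 (ENSG00000142156, chr21:45981737-46005050), a chain of the beaded collagen VI, was at 24.2 and 16.9 CPM in shNTC and 212, 185 and 169 CPM in shYAP_TAZ, or 3.21 on the log2 scale with SE 0.12 (edgeR adjusted p = 7.6e-15). The groups lay apart for both genes. COL5A2 (0.597 to 2.93 CPM, log2 2.30) and LAMA4 (0.127 to 1.01 CPM, log2 2.92) rose from low levels, and COL9A2 (2.33 to 0.159 CPM, log2 -3.81) and COL4A1 (2.49 to 1.21 CPM, log2 -1.02) fell. Among fibroblast markers COL1A1 (1.85 to 5.80 CPM, log2 1.67) rose and ACTA2 fell, with PDGFRA and POSTN at 0, as given above. COL4A1 overlaps another counted gene, so its value may hold reads of that neighbour.

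Junction genes leaned higher, and keratins seldom fell but rose in a share near that of all protein-coding genes. Of 19 tested keratin genes, 7 (36.8%, 4 of them at least 2-fold) rose, where 33.7% of tested protein-coding genes rose. Only 1 keratin gene (5.26%) fell, by at least 2-fold, and 11 did not pass the test. The median log2 fold change of the keratins was 0.21 (0.05 on log2(RPKM + 1)). KRT81, a hair keratin also seen in carcinomas, was at 2.45 and 2.55 CPM in shNTC and 16.4, 15.9 and 11.8 CPM in shYAP_TAZ, giving a log2 change of 2.55 with SE 0.16 (edgeR adjusted p = 2.5e-11). KRT5 (0.925 to 4.19 CPM, log2 2.17) and KRT6A (0.173 to 3.65 CPM, log2 4.31), keratins of basal and stressed epithelium, rose from levels near 1 CPM or below, and KRT4 (5.63 to 1.48 CPM, log2 -1.92) fell. KRT81 and KRT86 are near-identical neighbours that overlap, so their reads cannot be assigned with certainty. Without shNTC replicate 2 the median of the keratins was 0.35, and the log2 fold change of KRT6A was 4.92. Of 38 tested genes of cell-cell junctions, 17 (44.7%, 4 of them at least 2-fold) rose and 11 (28.9%, 2 of them at least 2-fold) fell. Their median log2 fold change was 0.21 (0.09 on log2(RPKM + 1)). CLDN3 (28.2 to 85.3 CPM, log2 1.60), a tight junction claudin, DSP (105 to 237 CPM, log2 1.18), the desmosomal plakin, and GJB5 (1.27 to 3.52 CPM, log2 1.45), a connexin, rose, and CLDN2 (2.11 to 0.523 CPM, log2 -1.95), a pore-forming claudin, and MARVELD2 (27.8 to 12.5 CPM, log2 -1.15), tricellulin, fell. KRT81, GJB5 and CLDN2 each overlap another counted gene, so their values may hold reads of that neighbour.

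Protease inhibitors, complement and coagulation genes were higher in the majority of their called members. Of 42 tested serpins, kallikreins and other protease inhibitors, 20 (10 of them at least 2-fold) rose and 12 (5 of them at least 2-fold) fell, with a median log2 fold change of 0.56 (0.23 on log2(RPKM + 1)). TIMP1, an inhibitor of matrix metalloproteinases, was at 119 and 112 CPM in shNTC and 378, 388 and 359 CPM in shYAP_TAZ, giving a log2 change of 1.70 with SE 0.06 (edgeR adjusted p = 8.9e-15). SLPI (8.72 to 30.5 CPM, log2 1.79) and PI3 (0.253 to 1.17 CPM, log2 2.15), inhibitors of neutrophil elastase, and SERPINI1 (4.46 to 14.9 CPM, log2 1.73) rose, and SERPINA5 (13.8 to 5.63 CPM, log2 -1.30) and KLK5 (1.78 to 0.609 CPM, log2 -1.54) fell. Of 27 tested complement and coagulation genes, 19 (10 of them at least 2-fold) rose and 5 (1 of them at least 2-fold) fell, with a median log2 fold change of 0.80. THBD, thrombomodulin, which turns thrombin to anticoagulation, was at 165 and 139 CPM in shNTC and 468, 439 and 427 CPM in shYAP_TAZ, giving a log2 change of 1.55 with SE 0.08 (edgeR adjusted p = 3.4e-13). PLAT (8.84 to 27.9 CPM, log2 1.66), the tissue plasminogen activator, F10 (0.419 to 2.23 CPM, log2 2.43), C1S (1.89 to 14.1 CPM, log2 2.88), a protease of the classical pathway, and VWF (0.802 to 9.40 CPM, log2 3.60), known as an endothelial gene, rose. C3, by far the most abundant of those named, fell, from 1689.5 and 1804 CPM in shNTC to 972, 941 and 897 CPM in shYAP_TAZ, giving a log2 change of -0.90 with SE 0.07 (edgeR adjusted p = 5.8e-10). Likewise F2R (35.6 to 22.6 CPM, log2 -0.66), a thrombin receptor, fell. VWF and ESAM are the 2 endothelial markers that rose and PECAM1 is the 1 that fell, with KDR and EMCN at 0 in all 5 libraries. Without shNTC replicate 1 the log2 fold change of VWF was 4.32. F10 and C1S each overlap another counted gene, so their values may hold reads of that neighbour.

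Ion channels gave 14 rises of at least 2-fold, the most of the 44 lists, but the list is long and many of its members are expressed at low levels. Changes of at least 2-fold in either direction were made by 25.0% of its members. That share was 15.7% over tested protein-coding genes and 50.0% over collagens and laminins. Of 64 tested ion channel genes, 33 (14 of them at least 2-fold) rose and 12 (2 of them at least 2-fold) fell, with a median log2 fold change of 0.43 (0.09 on log2(RPKM + 1)). KCNF1 (0.155 to 3.45 CPM, log2 4.43), TRPV2 (0.225 to 1.51 CPM, log2 2.67), KCNN1 (0.31 to 1.52 CPM, log2 2.30) and CACNG8 (1.20 to 4.84 CPM, log2 2.01) rose, each to under 5 CPM. The largest change of the list was a fall, that of SCNN1G, of the epithelial sodium channel, at 8.43 and 7.42 CPM in shNTC and 0.103, 0.0892 and 0.146 CPM in shYAP_TAZ, giving a log2 change of -6.06 with SE 0.27 (edgeR adjusted p = 7.1e-14).

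**Figure D3:**
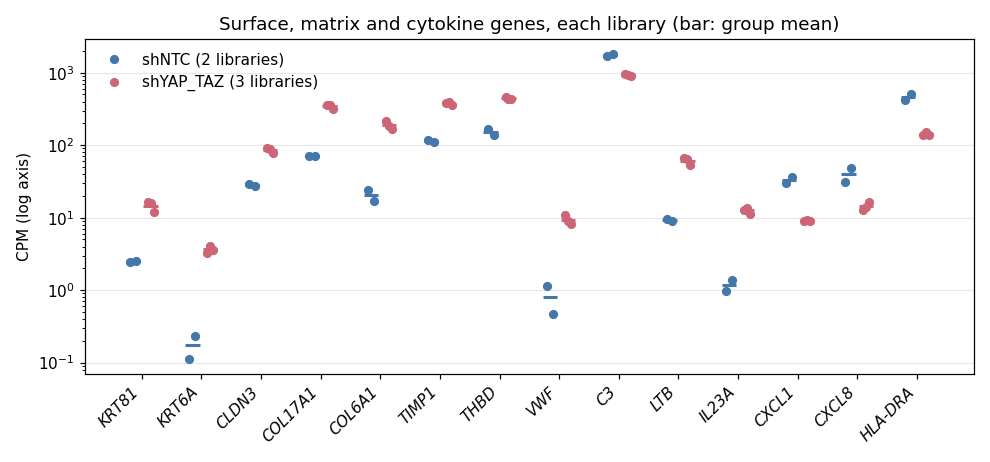
CPM in each of the 2 shNTC and 3 shYAP_TAZ libraries (vertical log axis) for 14 genes of keratins, junctions, matrix, coagulation, cytokines and antigen presentation; short bars are group means. C3, CXCL1, CXCL8 and HLA-DRA are lower in all 3 shYAP_TAZ libraries, and the other 10 genes are higher in all 3.

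Cytokine genes moved in both directions, as did tested protein-coding genes at large, of which 33.7% rose and 33.9% fell. Of 29 tested chemokine and interleukin genes, 13 (44.8%, 7 of them at least 2-fold) rose and 9 (31.0%, 5 of them at least 2-fold) fell. Their median log2 fold change was 0.45 (0.04 on log2(RPKM + 1)). CXCL1, a neutrophil attractant, was at 30.1 and 36.4 CPM in shNTC and 8.92, 9.23 and 8.92 CPM in shYAP_TAZ, giving a log2 change of -1.88 with SE 0.10 (edgeR adjusted p = 6.3e-13), and CXCL8 (39.7 to 14.3 CPM, log2 -1.49) fell with it. The T cell attractants CXCL10 (0.715 to 2.97 CPM, log2 2.00) and CXCL11 (0.31 to 1.11 CPM, log2 1.83), which interferon is known to raise, rose from below 1 CPM, as did IL32 (1.70 to 8.11 CPM, log2 2.26) and IL23A (1.18 to 12.6 CPM, log2 3.38) from between 1 and 2 CPM. With only the 5 compared libraries in the fit the median of this list was 0.00, and on log2(RPKM + 0.1) it was 0.15. The log2 fold change of CXCL10 was 2.68 without shNTC replicate 2. Of 31 tested TNF ligands and receptors, 15 (7 of them at least 2-fold) rose and 6 (2 of them at least 2-fold) fell, with a median log2 fold change of 0.37 (0.11 on log2(RPKM + 1)). LTB, lymphotoxin beta, was at 9.63 and 8.91 CPM in shNTC and 66.7, 64.3 and 52.5 CPM in shYAP_TAZ, giving a log2 change of 2.73 with SE 0.12 (edgeR adjusted p = 5.6e-14). TNFRSF10D (17.1 to 65.8 CPM, log2 1.94), a decoy receptor for TRAIL, rose, and FAS (73.3 to 27.2 CPM, log2 -1.43), a death receptor, fell. TNFRSF17 had no count in shNTC and 5.62, 6.42 and 5.71 CPM in shYAP_TAZ. Of 26 tested genes of antigen presentation, 11 (2 of them at least 2-fold) rose and 12 (1 of them at least 2-fold) fell, with a median log2 fold change of 0.02. HLA-DRA, of class II, was at 414 and 502 CPM in shNTC and 139, 153 and 136 CPM in shYAP_TAZ, giving a log2 change of -1.68 with SE 0.08 (edgeR adjusted p = 1.1e-13), while its partner gene HLA-DRB1 (141 to 257 CPM, log2 0.86) and HLA-DPA1 (52.6 to 112 CPM, log2 1.08) and HLA-DPB1 (15.8 to 28.1 CPM, log2 0.83) rose. HLA genes are polymorphic and alike, so the alignment of short reads to 1 reference allele limits these values. The median of that list was -0.06 without shNTC replicate 1, -0.01 without shYAP_TAZ replicate 2 and 0.08 without shNTC replicate 2. FAS, HLA-DPA1 and HLA-DPB1 each overlap another counted gene, so their values may hold reads of that neighbour.

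Ligands and receptors of guidance and patterning pathways changed member by member. Of 26 tested Wnt ligands and frizzled receptors, 13 (50.0%, 5 of them at least 2-fold) rose and 8 (30.8%, 5 of them at least 2-fold) fell. Among tested protein-coding genes 33.7% rose and 33.9% fell. The median log2 fold change of the Wnt list was 0.21 (0.13 on log2(RPKM + 1)). WNT7A (0.287 to 9.15 CPM, log2 4.99) and WNT10A (0.576 to 1.67 CPM, log2 1.50) rose, and WNT7B (91.8 to 31.3 CPM, log2 -1.55), WNT11 (10.3 to 2.84 CPM, log2 -1.85) and WNT8B (4.50 to 0.908 CPM, log2 -2.30) fell, so the 2 WNT7 genes changed in opposite directions. Without its 2 members on chromosome 8 the median of the list was 0.33. Of 22 tested genes of BMP, activin and GDF signalling, 10 (45.5%, 7 of them at least 2-fold) rose and 7 (31.8%, 2 of them at least 2-fold) fell. Their median log2 fold change was 0.15 (0.04 on log2(RPKM + 1)). NOG (0.973 to 4.94 CPM, log2 2.41), the BMP antagonist noggin, INHBB (1.35 to 6.59 CPM, log2 2.25), an activin chain, BMP1 (23.8 to 62.4 CPM, log2 1.39), a protease that matures collagens, and ACVR2B (13.9 to 33.7 CPM, log2 1.28) rose, and ID3 (323 to 173 CPM, log2 -0.90), a BMP target, fell. That median was 0.26 without shNTC replicate 1, 0.05 without shNTC replicate 2, 0.03 without the members on chromosome 8 and 0.02 with only the 5 libraries in the fit. For NOG the log2 fold change was 3.39 without shNTC replicate 1 and 1.72 without shNTC replicate 2. Of 16 tested Eph receptors and ephrins, 9 (1 of them at least 2-fold) rose and 3 (2 of them at least 2-fold) fell, with a median log2 fold change of 0.28. EFNB2 (44.5 to 124 CPM, log2 1.48) and EPHA1 (23.7 to 39.6 CPM, log2 0.75) rose, and EPHA3 (3.33 to 0.132 CPM, log2 -4.64) and EPHA6 (1.27 to 0.369 CPM, log2 -1.75) fell. Without shYAP_TAZ replicate 1 the log2 fold change of EPHA3 was -5.45. Among the 25 tested semaphorins, plexins and neuropilins, 13 (7 of them at least 2-fold) fell and 8 (5 of them at least 2-fold) rose (median log2 fold change -0.31, or -0.17 on log2(RPKM + 1)). SEMA3C (13.4 to 2.30 CPM, log2 -2.54), SEMA4A (1.91 to 0.344 CPM, log2 -2.47) and the receptor PLXNA3 (52.0 to 17.1 CPM, log2 -1.60) fell, and SEMA7A (52.7 to 171 CPM, log2 1.70) and PLXNA2 (2.14 to 23.6 CPM, log2 3.47) rose. EPHA1 and PLXNA3 each overlap another counted gene, so their values may hold reads of that neighbour.

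Genes of the actin cytoskeleton and its motors rose more often than they fell. Of 49 tested genes of actin, myosin and tropomyosin, 29 (8 of them at least 2-fold) rose and 7 (5 of them at least 2-fold) fell, with a median log2 fold change of 0.32. MYH14, a non-muscle myosin heavy chain, was at 132 and 102 CPM in shNTC and 344, 334 and 304 CPM in shYAP_TAZ, giving a log2 change of 1.49 with SE 0.10 (edgeR adjusted p = 7.4e-11), and MYO5B (29.6 to 82.7 CPM, log2 1.49), a vesicle motor of apical trafficking, and MYH15 (1.26 to 7.09 CPM, log2 2.49) rose as well. MYO7A (6.63 to 2.74 CPM, log2 -1.27) and ACTA2 (15.4 to 5.73 CPM, log2 -1.43) fell. ACTA2 is also a fibroblast marker and shares its locus with FAS. ACTA2 overlaps another counted gene, so its value may hold reads of that neighbour.

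Among transcription factors the families differed in their direction. FOXM1 (ENSG00000111206, chr12:2857681-2877155) was at 1289 and 1133 CPM in shNTC and 153, 139 and 129.7 CPM in shYAP_TAZ, giving a log2 change of -3.11 with SE 0.07 (edgeR adjusted p = 2.0e-17). KLF13 was at 9.06 and 7.56 CPM in shNTC and 82.4, 81.7 and 75.7 CPM in shYAP_TAZ, or 3.27 on the log2 scale with SE 0.10 (edgeR adjusted p = 2.0e-16). Both groups of libraries lay apart for both genes, 1 lower and 1 higher in shYAP_TAZ. Of 48 tested KLF, SOX, GATA and FOX genes, 23 (9 of them at least 2-fold) rose and 13 (3 of them at least 2-fold) fell, with a median log2 fold change of 0.26 (0.15 on log2(RPKM + 1)). Without shNTC replicate 2 that median was 0.16. Of the 12 KLF genes 9 rose, among them KLF4 (27.8 to 47.8 CPM, log2 0.78), KLF6 (148 to 255 CPM, log2 0.78) and KLF11 (12.1 to 25.0 CPM, log2 1.04), and 2 fell, KLF2 (105 to 55.2 CPM, log2 -0.92) and KLF3 (163 to 133 CPM, log2 -0.29). SOX2 (2.44 to 8.48 CPM, log2 1.82) rose and FOXQ1 (52.9 to 13.3 CPM, log2 -1.98) fell, and FOXF1 had no count in shNTC and 4.43, 4.50 and 4.44 CPM in shYAP_TAZ. Of 28 tested nuclear receptors, 15 (6 of them at least 2-fold) rose and 8 (3 of them at least 2-fold) fell, with a median log2 fold change of 0.37. The 3 NR4A genes, known as immediate early genes, rose together: NR4A1 (2.25 to 5.50 CPM, log2 1.30), NR4A2 (1.70 to 8.59 CPM, log2 2.33) and NR4A3 (0.269 to 1.49 CPM, log2 2.51). RARG (147 to 32.8 CPM, log2 -2.16), a retinoic acid receptor, fell. Without shNTC replicate 2 the median of the nuclear receptors was 0.24, and NR4A3 was at 1.88 on the log2 scale, against 3.37 without shNTC replicate 1. Among the 15 tested HOX genes, 8 (3 of them at least 2-fold) fell and 3 rose (median log2 fold change -0.52). HOXA2 (17.3 to 2.87 CPM, log2 -2.58), HOXA3 (207 to 96.2 CPM) and HOXA13 (6.74 to 3.31 CPM, log2 -1.01) were the 3 that fell at least 2-fold, and HOXA5 (4.10 to 6.01 CPM, log2 0.56) rose. FOXM1, HOXA3 and HOXA5 each overlap another counted gene, so their values may hold reads of that neighbour.

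Zinc finger genes with ZNF symbols form the largest list, with a median log2 fold change of -0.21, or -0.11 on log2(RPKM + 1). Of the 364 tested only 60 rose (16.5%), where 33.7% of tested protein-coding genes rose. The 144 that fell (39.6%) were nearer the share of tested protein-coding genes that fell (33.9%). Of these falls 15 were at least 2-fold, such as ZNF114 (2.71 to 0.512 CPM, log2 -2.39) and ZNF488 (16.5 to 5.35 CPM, log2 -1.61). ZNF467 (4.41 to 25.8 CPM, log2 2.57) and ZNF697 (1.56 to 4.80 CPM, log2 1.64) rose. Of 26 tested genes of DNA methylation and Polycomb complexes, 10 (2 of them at least 2-fold) rose and 8 fell, with a median log2 fold change of 0.06. CBX7 (9.99 to 36.6 CPM, log2 1.87), a reader of H3K27 methylation, and JARID2 (41.9 to 100.3 CPM, log2 1.26), a partner of PRC2, rose, and the PRC2 core genes EZH2 (40.1 to 24.4 CPM, log2 -0.72) and SUZ12 (109 to 56.3 CPM, log2 -0.95) fell. The median of that list was -0.06 without shNTC replicate 2 and 0.03 without shYAP_TAZ replicate 2.

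**Figure D4:**
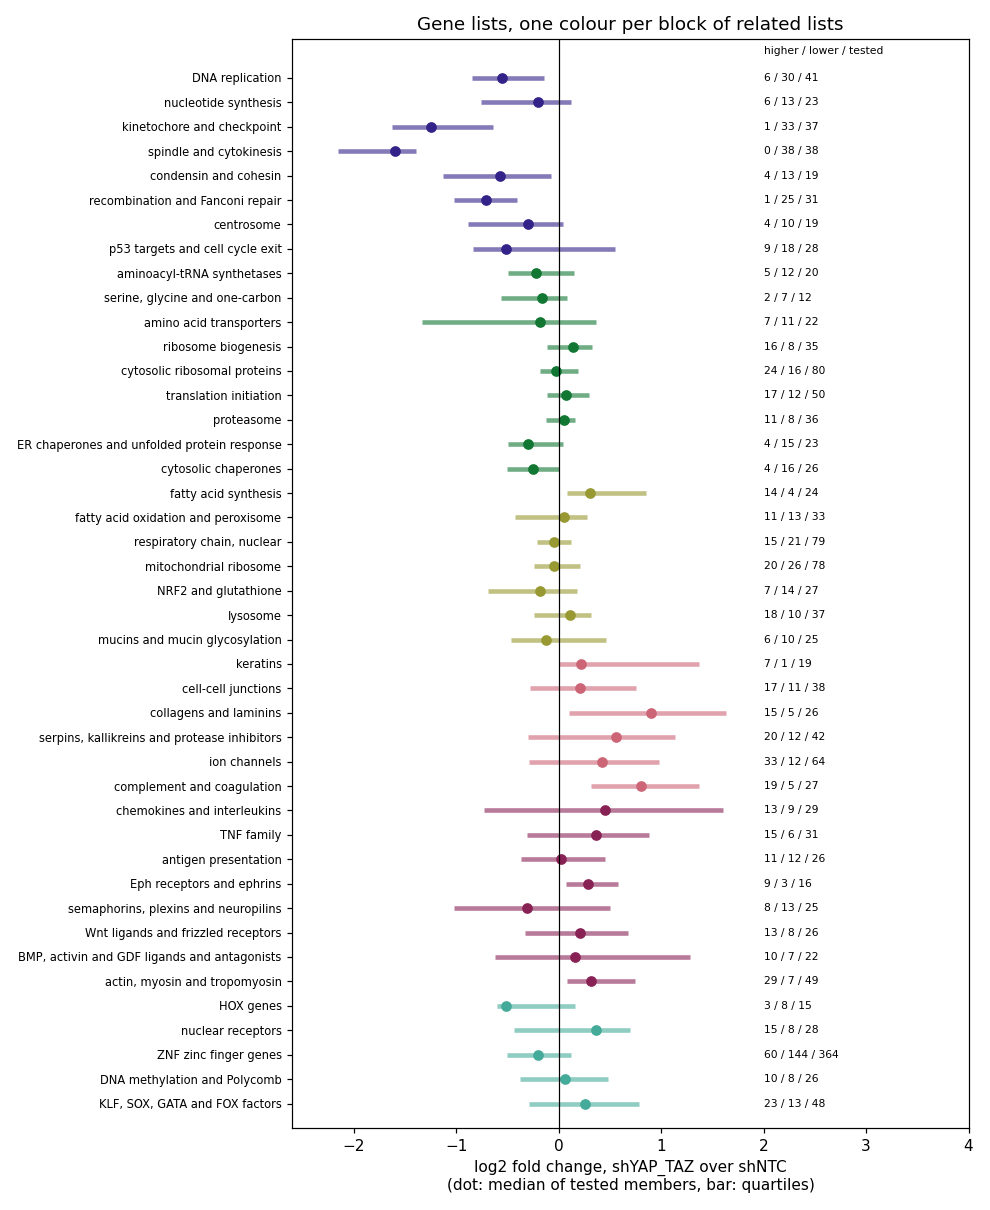
Median (dot) and quartiles (bar) of the log2 fold change of shYAP_TAZ over shNTC for the tested members of each of 43 of the 44 gene lists, with the numbers that rose, fell and were tested at the right; colours mark blocks of related lists. Spindle and kinetochore genes lie farthest to the left, and collagens and laminins and complement and coagulation genes farthest to the right.

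Beyond the hand-written lists, 227 families of protein-coding genes that share the letters of their symbol and have at least 8 tested members were ranked by their median log2 fold change. The highest median, 1.15, was that of 19 histone genes, of which 12 rose, each at least 2-fold, and 2 fell. HIST1H2AC was at 27.1 and 35.5 CPM in shNTC and 67.2, 70.5 and 72.4 CPM in shYAP_TAZ, and HIST1H2BD at 7.41 and 6.82 CPM in shNTC and 34.3, 32.4 and 35.0 CPM in shYAP_TAZ. HIST2H2BE (2.77 to 11.1 CPM, log2 1.99) and HIST1H2BC (1.30 to 7.95 CPM, log2 2.63) rose as well, whereas HIST1H4I (1.50 to 0.723 CPM, log2 -1.06) fell; these members were chosen after their values were seen. Most replication-dependent histone mRNAs lack the poly(A) tail, and the gene copies are alike, so these mostly low levels are uncertain. The families next in order were COL (median 0.77), KLK (0.56), SAMD (0.53), KLF (0.52) and RAP (0.50). Their counts differed: 7 of 8 RAP genes and 8 of 18 COL genes rose, and 0 and 4 fell. Only 3 of 8 KLK genes rose and 2 fell. In SAMD 4 of 11 rose and 4 fell, so its share of rises (36.4%) was near the 33.7% of tested protein-coding genes. At the low end stood TOMM (-0.78), ZBED (-0.63), KIF (-0.58), SEMA (-0.52), TTLL (-0.52) and DHRS (-0.50). TTLL genes encode enzymes that modify tubulin, and DHRS genes encode short-chain dehydrogenases. Of 11 DHRS genes 8 fell and 1 rose, with DHRS9 (4.02 to 0.518 CPM, log2 -2.98), DHRS11 (20.0 to 6.91 CPM, log2 -1.53), DHRS2 (24.2 to 9.80 CPM, log2 -1.30) and DHRS3 (321 to 158 CPM, log2 -1.02), an enzyme that reduces retinaldehyde, the 4 that fell at least 2-fold.

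Genes of chromosome 8 leaned lower in the shYAP_TAZ line. Of 575 tested genes on the chromosome 288 fell (50.1%, against 29.7% of tested genes elsewhere) and 112 rose (19.5%, against 30.7% elsewhere). The median log2 fold change was -0.29, the lowest of the 23 chromosomes; the next was chromosome 4 at -0.11, and the highest was chromosome 21 at 0.16. Among the 420 protein-coding genes of chromosome 8 the median was -0.38, with 248 that fell and 76 that rose. Among the 349 genes with a mean of at least 10 CPM it was -0.35, with 217 and 60. Genes of chromosome 8 make up 3.54% of tested genes, 6.06% of those that fell at least 2-fold and 3.14% of those that rose at least 2-fold.

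The deviation was alike within each group of libraries. For each library, the median deviation of chromosome 8 genes from their mean over the 5 libraries was set against that of all other tested genes, on the log2 CPM scale. The difference was 0.18 in both shNTC libraries and -0.10, -0.12 and -0.12 in the shYAP_TAZ libraries. The group means differed by -0.29, with a pooled SD within groups of 0.00958. Since the chromosome was picked for its lower values in this comparison, this is a description with no test.

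**Figure D5:**
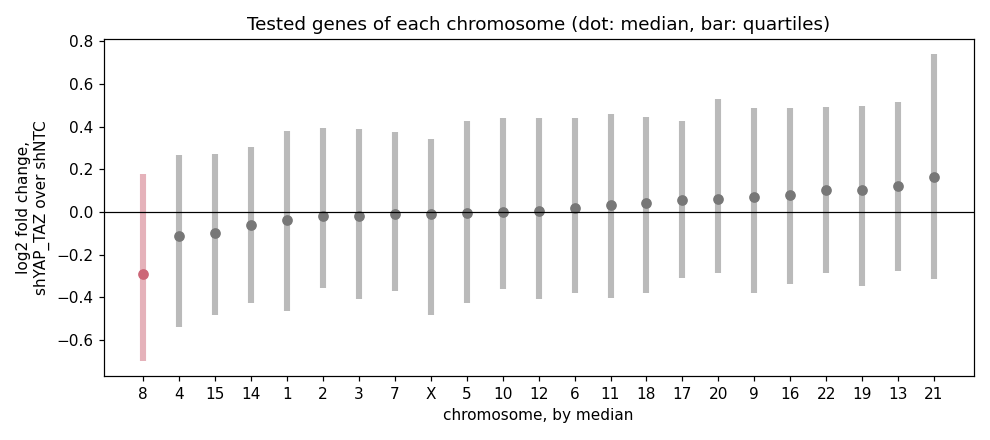
Median (dot) and quartiles (bar) of the log2 fold change of shYAP_TAZ over shNTC for the tested genes of each of 23 chromosomes, ordered by their median. Chromosome 8 stands at -0.29, below the next, chromosome 4, at -0.11.

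The shift was uneven along the chromosome. The 127 genes below 30 Mb had a median of -0.01, with 39 that rose and 45 that fell, and the 448 genes from 30 Mb on had a median of -0.37, with 73 and 243. The boundary at 30 Mb was set with the values in view, and windows of 10 Mb did not split cleanly there. Below it the medians were -0.15 (0 to 10 Mb), -0.10 (10 to 20 Mb) and 0.08 (20 to 30 Mb). Beyond it, the window from 40 to 50 Mb was at -0.15 and that from 130 to 140 Mb at 0.13. The lowest window of 10 Mb ran from 80 to 90 Mb, where 17 of 23 genes fell, 0 rose and the median was -0.60. From 50 to 100 Mb, a span that joins the lowest windows, 98 of 160 genes fell and 13 rose (median -0.47). Split by arm at 45 Mb, the short arm had a median of -0.10, with 81 of 197 genes that fell and 54 that rose. The long arm had a median of -0.40, with 207 of 378 genes that fell and 58 that rose. Of 264 windows of 10 Mb with at least 20 tested genes over all chromosomes, 13 are on chromosome 8, and 7 of these are among the lowest 15. The other 8 of those 15 lie on chromosomes 1, 4, 9, 19 and X, led by 10 to 20 Mb of chromosome 9 (median -0.50).

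Individual genes of chromosome 8 ranged far beyond the shift in both directions. RPL30, given above, and LAPTM4B lie on either side of MATN2 on the long arm, and LAPTM4B (ENSG00000104341, chr8:97775057-97853013), a lysosomal membrane protein, was at 96.7 and 104 CPM in shNTC and 20.8, 21.0 and 21.8 CPM in shYAP_TAZ, giving a log2 change of -2.25 with SE 0.07 (edgeR adjusted p = 4.3e-16). Genes around this pair fell by smaller folds, with log2 fold changes of -0.32 for MTDH, -0.88 for MATN2 and -0.36 for STK3, which encodes the Hippo kinase MST2. MATN2 overlaps RPL30, which is far more abundant, so its value may hold reads of RPL30. AP003352.1, a non-coding gene inside the RPL30 locus, fell as well (log2 -2.26), and its reads cannot be told apart from those of RPL30 without strand. CLU (48.5 to 12.2 CPM, log2 -1.99), a secreted chaperone, PBK (87.5 to 24.9 CPM, log2 -1.82), a mitotic kinase, LYPD2 (7.12 to 1.99 CPM, log2 -1.84) and LZTS1 were other large falls. PTTG3P, also among the 8 largest falls, is a processed pseudogene that may share reads with its parent gene PTTG1. Among abundant genes PLEC (879 to 348 CPM, log2 -1.34), which links intermediate filaments to junctions, fell with ASPH, LY6E and RPL8, and DUSP4 (428 to 984 CPM, log2 1.20) rose, whereas FDFT1 (690 to 734 CPM), CALB1 (1233 to 1187 CPM) and PABPC1 (1284 to 1203 CPM) did not pass the test. PBK overlaps another counted gene, so its value may hold reads of that neighbour.

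The largest rises on chromosome 8 ran against its lean. NOV was at 1.03 and 1.44 CPM in shNTC and 27.3, 30.3 and 25.6 CPM in shYAP_TAZ, giving a log2 change of 4.46 with SE 0.19 (edgeR adjusted p = 6.2e-14). TRIB1, a pseudokinase that directs protein degradation, was at 30.7 and 27.0 CPM in shNTC and 138, 132 and 133 CPM in shYAP_TAZ, or 2.22 on the log2 scale with SE 0.07 (edgeR adjusted p = 7.9e-16). In both genes all 3 shYAP_TAZ libraries lay above both shNTC libraries. NDRG1 (7.42 to 31.8 CPM, log2 2.09), a stress-responsive gene, TNFRSF10D (17.1 to 65.8 CPM, log2 1.94), TSNARE1 (23.1 to 84.2 CPM, log2 1.86), PLAT (8.84 to 27.9 CPM, log2 1.66), SNAI2 (3.37 to 9.48 CPM, log2 1.49), a transcription factor of the mesenchymal switch, and RP1L1 (2.09 to 5.82 CPM, log2 1.48) were the other 6 of the 8 largest rises. In the resistant line, which shares the shYAP/WWTR1 hairpin origin, the median of chromosome 8 genes was -0.54 against shNTC and -0.22 against shYAP_TAZ, comparisons that share libraries with the one described here. Below 30 Mb these values were -0.73 and -0.80, where shYAP_TAZ itself was at -0.01 against shNTC. RP1L1 overlaps another counted gene, so its value may hold reads of that neighbour.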

How the data were processed

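Libraries were prepared with the TrueSeq RNA v2 kit and read on 1 end over 50 bases, per the labels' protocols. The submitters' processing notes name GSNAP, GRCh38.p10 and limma, with no roles; how reads were counted, on which annotation and with which strand setting, the sources used here do not give. The deposited count table holds raw counts per gene. The deposited RPKM table holds RPKM values computed by the authors, which equal each count over the column total and 1 constant per gene (largest relative deviation 8.5e-07). Gene symbols and coordinates came from GENCODE 29 on GRCh38, which held 58039 of 58302 genes.

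Counts were tested with edgeR 4.0.16 in R 4.3.3: filterByExpr, TMM factors, 1 fit by quasi-likelihood over the 8 libraries with a group term, and the two-sided contrast of shYAP_TAZ with shNTC, adjusted by Benjamini-Hochberg over 16256 genes. The tested genes held 99.9% of counts, and the common biological coefficient of variation was 5.35%. Lists (44), symbol families, chromosomes and windows were described by counts and medians, with no set test. The edgeR fit was tested on simulated counts with few changed genes and a common spread. That simulation held no shifted chromosome and no majority of changed genes, so it does not cover the conditions met here. Total counts set the precision, and genes of few counts have wide errors.

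The members and lists were chosen with earlier results of these data known. Named genes are YAP1 and WWTR1; the 15 largest rises and falls in CPM, and in log2 fold change from a mean of 10 CPM in the higher group, among called protein-coding genes without overlap between libraries; per list up to 5 called members by fold, and up to 2 against the majority, from 1 CPM; on chromosome 8 the 8 largest falls and rises from 5 CPM and the 8 most abundant genes; the 6 lowest and highest families; and markers from 1 CPM. Not every gene the rule took is described, and 1 of the 44 lists and a few genes are not reported here. MTDH, MATN2 and STK3 were chosen for their position after their values were seen.

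Alternatives were RLE, upper-quartile and TMM factors without chromosome 8 genes, DESeq2 1.42.0, limma-voom and limma-trend (limma 3.58.1), 2 other low-count filters, only the 5 libraries, the replicate number as a block, glmTreat, and each of the 5 libraries left out.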

Additional observations from a re-analysis of the deposited data

How the results depend on the processing

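Counts of genes that rose or fell stayed within 1.5 times the reported ones in every alternative run, from 4169 to 5161 higher and from 4433 to 5035 lower. The number of at least 2-fold changes depended on the scale and the test: 485 higher and 542 lower with limma-trend on log2(RPKM + 1), and 654 and 682 with glmTreat, which tests against a 2-fold change. The chromosome 8 median stayed below 0 throughout. It was -0.30 with TMM factors that leave out chromosome 8 genes, -0.30 with at least 1 CPM in 2 libraries, -0.30 with only the 5 libraries, -0.27 with upper-quartile factors, -0.20 on log2(RPKM + 1), -0.17 without a low-count filter, and -0.35 from a mean of 10 CPM, where 60 genes rose. Leaving out 1 library gave -0.31 to -0.27. With the replicate number as a block, 9181 genes were called, 9108 of them among the 9870 reported, and the chromosome 8 median was -0.28. The numbers are not shown to pair the libraries: deviations of same-numbered libraries correlated across genes at 0.11 and 0.0039. DESeq2 called 8938 genes, 8936 of them in common. Of 320 named genes, a few lost their call without 1 library, among them HOXB5 (adjusted p = 0.0623) and INHBE (0.0533) without shNTC replicate 1; FANCE (0.108), HOXC10 (0.167), KCNJ5 (0.0536), LAPTM5 (0.0835) and MAT2A (0.11) without shNTC replicate 2; and HOXC10 (0.0508) and MAT2A (0.0719 and 0.0512) without shYAP_TAZ replicates 2 and 3. ESR1 (0.0644) lost it on log2(RPKM + 1), all by the tool's adjusted p (edgeR, and limma for RPKM). CALB1, which did not pass the test, was at -0.06 and ranged from -0.143 to 0.0324 when 1 library was left out, the latter without shNTC replicate 2. The causes were not tested.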
